A study of Homo sapiens with 12 samples.

Results

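RNA sensors detect viral RNA inside cells, and IRF and STAT factors carry the signal on to interferon-responsive genes. Here 9 such genes were followed. The cytosolic sensors RIG-I (DDX58) and MDA5 (IFIH1) bind double-stranded or uncapped RNA and signal through the adaptor MAVS, their relative LGP2 (DHX58) tunes them, and TLR3 detects double-stranded RNA in endosomes and signals through TICAM1. IRF3 and IRF7 then switch on interferon genes, and secreted interferon signals through its receptors and Janus kinases to STAT factors, and STAT2 and IRF9 are subunits of the complex ISGF3, which binds the interferon-stimulated response element. Many sensors and factors of this pathway, DDX58, IFIH1, IRF7, IRF9 and STAT2 among them, are themselves induced by interferon.

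The genes were chosen by name from the deposited count table of a renal carcinoma RNA-seq experiment, as the 4 RNA sensors DDX58, IFIH1, DHX58 and TLR3, the 4 IRF factors IRF1, IRF3, IRF7 and IRF9, and STAT2. All 9 were found among 38021 gene names, and all 9 were among the 16838 genes kept for testing. These genes and the gene lists used below were chosen with earlier results of these data known. Their shares beside those of all genes are therefore descriptions. The question was which of these upstream interferon pathway genes follow knockdown of BMAL1, the clock transcription factor encoded by ARNTL.

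RNA came from 12 cultures of 2 related lines. 786O is an established clear cell renal cell carcinoma line that lacks functional VHL, the ubiquitin ligase subunit that marks HIF-alpha subunits for degradation. WT8 is a 786O derivative that expresses wildtype VHL. Cells of each line carried a pLKO.1 lentivirus with a scrambled hairpin (shControl) or with a hairpin against BMAL1 (shBMAL1). All were under puromycin selection, so every group, controls included, was transduced and selected. The labels give the shControl groups of both lines the genotype WT and the shBMAL1 groups BMAL1 knockdown. Each of the 4 groups had 3 libraries that the labels call biological replicates, and p-values measure the spread between these libraries. Only 1 BMAL1 hairpin label, shBMAL1, is given for these libraries, although the methods of the study also list an independent BMAL1 hairpin. The lines were not independently authenticated or tested for mycoplasma according to the reporting summary of the study. With 1 line of each kind, an effect of VHL and one of the line cannot be told apart.

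Total counts per library were 33182005 to 36477484. ARNTL, the knockdown target, ranged over 378 to 464 counts in the 786O control libraries, 128 to 142 after knockdown in 786O, 309 to 355 in the WT8 control libraries and 56 to 72 after knockdown in WT8. VHL, which checks the line labels, had 602 to 740 counts in the 6 786O libraries. The WT8 shControl libraries held 31578 to 37514 VHL counts and the WT8 shBMAL1 libraries 23607 to 24876. VHL RNA was thus itself lower with shBMAL1 in WT8, at 647 ± 15.1 against 981 ± 56.5 CPM (counts scaled to a common library total; mean ± SD, n = 3), and its part in the WT8 results was not tested. Of 8 renal epithelial marker genes, 7 had at least 10 counts in the groups, with a summed level of 1522 to 1618 CPM in the 786O controls, 2223 to 2264 after knockdown in 786O, 2614 to 2686 in the WT8 controls and 1766 to 1875 after knockdown in WT8. The 8 leukocyte markers summed to at most 4.19 CPM in a library, with CD3E, CLEC4C and MS4A1 at 0 in every group, and the 4 endothelial markers to at most 1.47 CPM. In bulk RNA, fewer expressing cells and less RNA per cell cannot be told apart.

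The promoters of the genes are shown first because several of these genes are interferon-responsive. RefSeq gives a window of 250 bases before to 50 bases after the annotated start (build GRCh38.p14) for 6 of the 9 genes: DDX58 (listed as RIGI), IFIH1, TLR3, IRF1, IRF9 and STAT2. Printed are 4 of them: a sensor with several response element cores, a sensor with 1 core, and both IRF genes with a window. Capitals mark matches on either strand of the interferon-stimulated response element core GAAANNGAA, the STAT-binding GAS core TTCNNNGAA and the E-box CACGTG.

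IFIH1 (chr2:162318635-162318934, minus strand): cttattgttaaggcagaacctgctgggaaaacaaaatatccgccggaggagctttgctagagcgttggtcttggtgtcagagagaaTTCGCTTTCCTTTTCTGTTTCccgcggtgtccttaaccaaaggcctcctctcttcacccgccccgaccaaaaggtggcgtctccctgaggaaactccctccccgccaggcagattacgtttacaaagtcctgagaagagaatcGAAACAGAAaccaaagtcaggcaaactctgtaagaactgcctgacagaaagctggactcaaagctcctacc

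TLR3 (chr4:186068906-186069205, plus strand): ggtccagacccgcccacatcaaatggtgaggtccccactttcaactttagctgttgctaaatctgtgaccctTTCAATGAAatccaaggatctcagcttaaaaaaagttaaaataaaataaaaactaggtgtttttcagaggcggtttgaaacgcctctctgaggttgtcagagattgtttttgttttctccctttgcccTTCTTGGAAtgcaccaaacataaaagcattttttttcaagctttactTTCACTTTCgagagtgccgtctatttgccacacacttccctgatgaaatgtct

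IRF9 (chr14:24161015-24161314, plus strand): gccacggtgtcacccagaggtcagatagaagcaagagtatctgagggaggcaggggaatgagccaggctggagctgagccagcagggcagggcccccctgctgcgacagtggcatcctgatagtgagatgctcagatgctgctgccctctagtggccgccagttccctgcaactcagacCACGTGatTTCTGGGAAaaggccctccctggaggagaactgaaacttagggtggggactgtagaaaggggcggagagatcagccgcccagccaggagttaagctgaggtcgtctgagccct

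IRF1 (chr5:132490724-132491023, minus strand): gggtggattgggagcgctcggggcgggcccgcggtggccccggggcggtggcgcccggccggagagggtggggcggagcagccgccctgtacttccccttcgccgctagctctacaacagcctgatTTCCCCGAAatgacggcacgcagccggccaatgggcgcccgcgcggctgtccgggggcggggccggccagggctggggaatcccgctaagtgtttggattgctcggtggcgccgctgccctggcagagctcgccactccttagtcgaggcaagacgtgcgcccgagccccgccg

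The IFIH1 window held 4 response element cores, 3 of them overlapping each other 164, 158 and 152 bases before the start and the fourth 21 bases before it. TLR3 had 1 core 3 bases before the start and GAS cores 178 and 50 bases before it. IRF1, a gene induced by interferon-gamma, had a GAS core 124 bases before the start. IRF9 had a GAS core 63 bases before the start and was the single gene of the 6 with an E-box, the sequence that BMAL1 binds with CLOCK, 71 bases before the start. The hypoxia response element core, ACGTG or GCGTG, was present in the windows of DDX58, IRF1 and IRF9, and both matches in IRF9 lay within its E-box, which contains ACGTG. The windows of DDX58, IRF1, IRF9 and STAT2 held no response element core, and that of STAT2 none of the motifs searched. Among all 35116 windows, 8.11% held a response element core, 7.66% a GAS core, 7.26% the E-box and 48.4% a hypoxia element core. A match describes letters only, and no match says nothing about binding elsewhere.

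**Figure D1:**
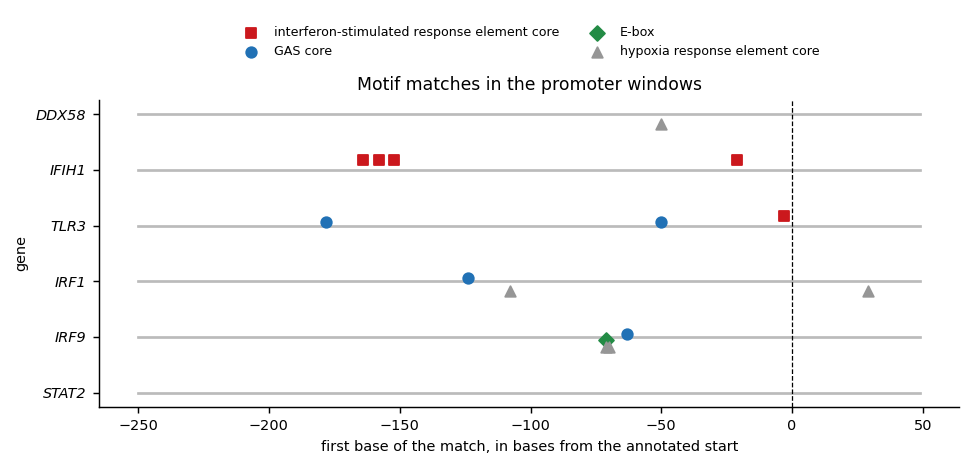
Positions of motif matches in the 6 promoter windows, with distance from the annotated start in bases on the x axis (0 is the first base of the transcript, dashed line) and one gene per row. The 4 response element cores of IFIH1 and the 1 of TLR3 are the only ones in the 6 windows, and IRF9 alone has an E-box.

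On GRCh37, GENCODE places the genes on 9 different chromosomes: DDX58 at chr9:32455300-32526206, IFIH1 at chr2:163123584-163175194, DHX58 at chr17:40253422-40264732, TLR3 at chr4:186990065-187009227, IRF1 at chr5:131776132-131844411, IRF3 at chr19:50162826-50169132, IRF7 at chr11:612553-615983, IRF9 at chr14:24630443-24637252 and STAT2 at chr12:56735381-56753987. TLR3 and IRF9 lie on the plus strand and the other 7 on the minus strand. The IRF3 gene shares 734 bases with BCL2L12, which lies on the opposite strand, and its values were not whole numbers in 11 of 12 libraries, so its counts are uncertain. DDX58, IRF1, IRF9 and STAT2 also overlap other annotated transcripts, and whether strand was used in counting is not given in the sources used here.

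In 786O, 7 of the 9 genes fell with shBMAL1, IRF1 rose and IRF7 did not pass the test (edgeR quasi-likelihood F test, Benjamini-Hochberg adjusted p under 0.1 over all genes tested). The same call was made for 48.9% of the 16838 genes tested, 24.4% of them lower. The median log2 change of the 9 genes was -0.46, beside 0.0007 for all genes tested. In WT8, 6 of the 9 genes fell, IRF3 rose, and IRF1 and IRF7 did not pass the test, beside 69.8% of all genes called and 36.9% called lower. Their median log2 change was -1.42, beside -0.04 for all genes tested. The 4 sensors, IRF9 and STAT2 were lower in both lines, which is 6 of 9 genes or 66.7%, beside 13.6% of all genes tested. Because the 9 genes were chosen with earlier results of these data known, this excess is a description only. DHX58, TLR3 and IRF7 had at most 19 counts in any WT8 library, and TLR3 passed the filter on low counts only through 786O.

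**Figure D2:**
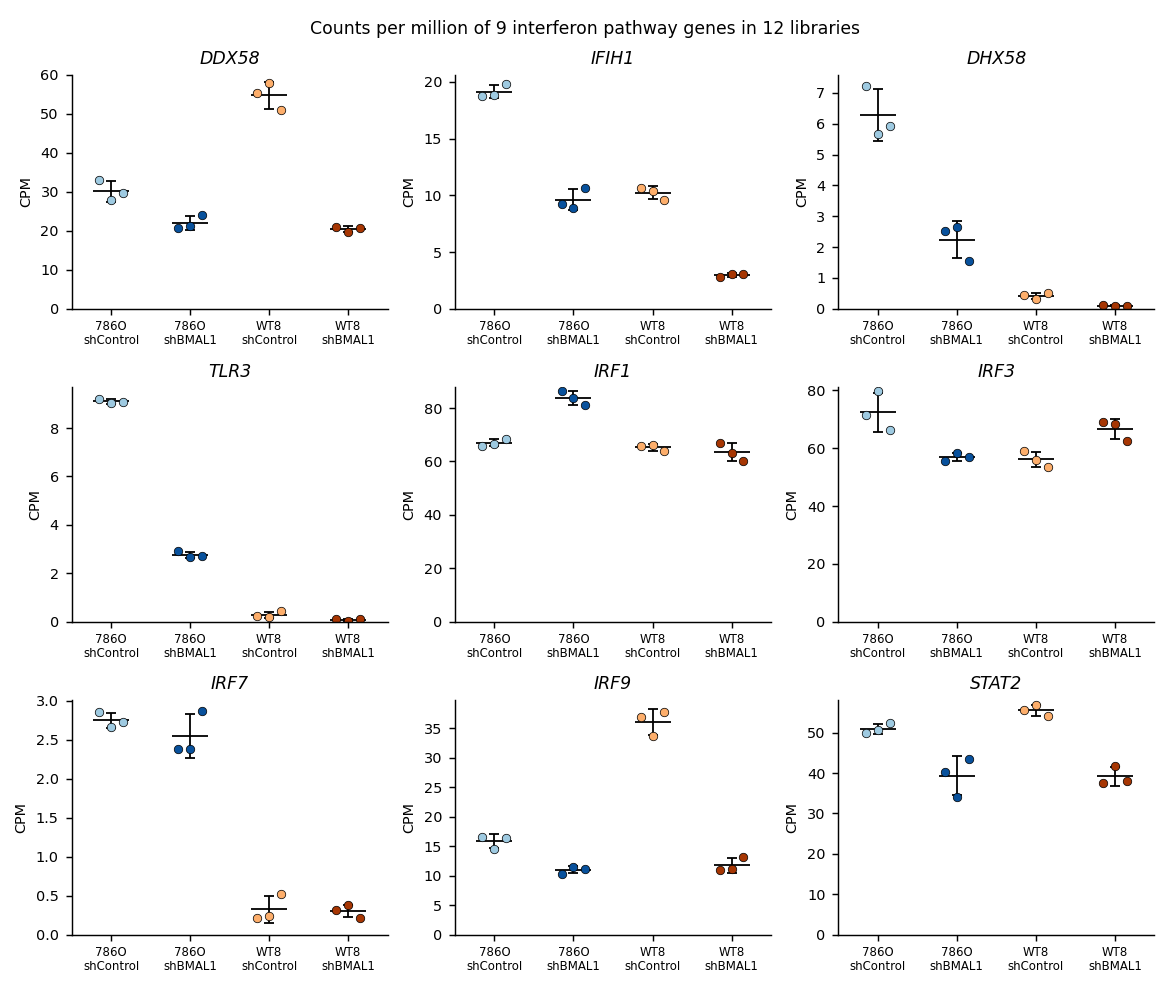
CPM (y axis, linear from 0, a separate scale for each gene) of the 9 genes in the 12 libraries, 3 points a group in the order of replicate number, with the group mean and SD as black bars. DDX58 and IRF9 are highest in WT8 shControl, whereas DHX58, TLR3 and IRF7 are highest in 786O.

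DDX58 encodes RIG-I, the sensor of short RNA with a 5-prime triphosphate. Its level was 33.1, 27.8 and 29.6 CPM in the 786O shControl libraries, 20.7, 21.3 and 23.9 in 786O shBMAL1, 55.2, 57.8 and 51.0 in WT8 shControl and 21.0, 19.6 and 20.7 in WT8 shBMAL1. Both control groups lay above both shBMAL1 groups, with no overlap, and the WT8 controls were the highest. DDX58 fell 1.37-fold in 786O (log2 change -0.46, SE 0.08, adjusted p = 5.68e-06) and 2.67-fold in WT8 (log2 change -1.42, SE 0.07, adjusted p = 1.53e-18). The interaction, which is the log2 change in WT8 minus that in 786O, was -0.96 (SE 0.11, adjusted p = 1.28e-09). The 2 shBMAL1 groups overlapped and did not pass the test against each other (log2 WT8 minus 786O -0.10, SE 0.08, adjusted p = 0.239), a pair of groups in which 73.0% of all genes did.

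IFIH1 encodes MDA5, the sensor of long double-stranded RNA. Its level was 18.7, 18.8 and 19.8 CPM in 786O shControl and 9.22, 8.92 and 10.7 in 786O shBMAL1. In WT8 it was 10.7, 10.4 and 9.60 CPM with shControl and 2.76, 3.05 and 3.08 with shBMAL1. The WT8 shControl and 786O shBMAL1 libraries overlapped. The fall was 1.99-fold in 786O (log2 change -0.99, SE 0.10, adjusted p = 9.41e-11) and 3.45-fold in WT8 (-1.79, SE 0.11, adjusted p = 3.63e-16), and the interaction was -0.79 (SE 0.15, adjusted p = 3.02e-05). WT8 shControl and 786O shBMAL1 differed by a log2 value of 0.09 (SE 0.10, adjusted p = 0.403), which did not pass the test, whereas 80.1% of all genes passed between these groups.

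DHX58 encodes LGP2, the relative of RIG-I without signaling domains. It had 248, 198 and 208 counts in the 786O shControl libraries, which is 7.24, 5.66 and 5.91 CPM, and 88, 92 and 54 counts in 786O shBMAL1, which is 2.53, 2.65 and 1.55 CPM. WT8 libraries held 16, 11 and 19 counts with shControl and 5, 4 and 3 with shBMAL1. No pair of groups overlapped, in the order 786O shControl, 786O shBMAL1, WT8 shControl and WT8 shBMAL1. DHX58 fell 2.79-fold in 786O (log2 change -1.48, SE 0.20, adjusted p = 1.53e-07). In WT8 the fall was 3.89-fold (-1.96, SE 0.45, adjusted p = 0.000305), and the ratio of summed counts, 46 against 12, was 3.99 with a 95% exact (Clopper-Pearson) interval of 2.08 to 8.27 for counting error only. The interaction did not pass the test (-0.48, SE 0.50, adjusted p = 0.453), so a difference in the fall between lines was not detectable at this depth.

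TLR3 had 9.22, 9.04 and 9.07 CPM in 786O shControl and 2.90, 2.68 and 2.70 in 786O shBMAL1, where its fall of 3.30-fold (log2 change -1.72, SE 0.17, adjusted p = 1.39e-10) was the largest of the 9 genes. In WT8 it had 9, 6 and 16 counts with shControl and 4, 1 and 4 with shBMAL1. The WT8 groups did not overlap and the test was passed (log2 change -1.80, SE 0.50, adjusted p = 0.00206), and the ratio of summed counts, 31 against 9, was 3.58 with an interval of 1.66 to 8.55. The interaction was -0.07 on the log2 scale (adjusted p = 0.897) and did not pass the test.

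IRF9, the DNA-binding subunit of ISGF3, had 16.6, 14.5 and 16.4 CPM in 786O shControl and 10.3, 11.4 and 11.2 in 786O shBMAL1. The WT8 libraries had 36.9, 33.6 and 37.8 CPM with shControl and 10.9, 11.1 and 13.1 with shBMAL1. The WT8 controls stood above all other libraries, and the 2 shBMAL1 groups overlapped at the low end. IRF9 fell 1.44-fold in 786O (log2 change -0.53, SE 0.09, adjusted p = 9.45e-06) and 3.08-fold in WT8 (-1.63, SE 0.09, adjusted p = 1.91e-18). Its interaction of -1.10 (SE 0.12, adjusted p = 2.52e-09) was the largest of the 9 genes in size. WT8 shBMAL1 was below 786O shControl (log2 difference -0.44, SE 0.09, adjusted p = 4.78e-05), a pair of groups in which 75.8% of all genes were called, and did not pass the test against 786O shBMAL1 (adjusted p = 0.381).

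STAT2, the subunit of ISGF3 that activates transcription, had 49.8, 50.6 and 52.4 CPM in 786O shControl and 40.4, 34.2 and 43.6 in 786O shBMAL1. WT8 had levels of 55.7, 56.9 and 54.1 CPM with shControl and 37.7, 41.8 and 38.1 with shBMAL1. The shBMAL1 libraries lay below the control libraries in both lines, with the second 786O shBMAL1 library the lowest of all 12. STAT2 fell 1.29-fold in 786O (log2 change -0.37, SE 0.07, adjusted p = 2.56e-05) and 1.42-fold in WT8 (-0.50, SE 0.07, adjusted p = 4.28e-08). The interaction was -0.13 (SE 0.10, adjusted p = 0.262) and did not pass the test. It passed without the second 786O shBMAL1 library (-0.21, adjusted p = 0.0497) and with upper quartile scaling (-0.19, adjusted p = 0.0897).

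IRF3, the latent factor that the sensors activate by phosphorylation, moved in opposite directions in the 2 lines. It had 71.5, 79.7 and 66.3 CPM in 786O shControl, 55.5, 58.3 and 57.0 in 786O shBMAL1, 59.0, 55.9 and 53.5 in WT8 shControl and 68.9, 68.2 and 62.5 in WT8 shBMAL1. In 786O the control libraries were higher and in WT8 the shBMAL1 libraries were, with no overlap in either line. The log2 change was -0.35 in 786O (SE 0.06, adjusted p = 1.1e-05) and 0.25 in WT8 (SE 0.06, adjusted p = 0.000532), and the interaction of 0.59 (SE 0.08, adjusted p = 2.94e-07) passed the test. The sizes were small, a 1.27-fold fall and a 1.19-fold rise, in counts that are uncertain given the overlap with BCL2L12 and the values that were not whole.

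IRF1, a factor induced by interferon-gamma and inflammatory signals, rose in 786O only among the comparisons of shBMAL1. It had 65.9, 66.5 and 68.4 CPM in 786O shControl and 86.4, 83.9 and 81.3 in 786O shBMAL1, a 1.25-fold rise without overlap (log2 change 0.33, SE 0.05, adjusted p = 2.57e-06). The WT8 levels were 65.9, 66.3 and 63.8 CPM with shControl and 67.0, 63.1 and 60.2 with shBMAL1, which overlapped (log2 change -0.04, SE 0.05, adjusted p = 0.494). With upper quartile scaling that value was -0.12 and passed (adjusted p = 0.0437). The interaction was -0.37 (SE 0.07, adjusted p = 6.38e-05).

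IRF7, the factor that amplifies interferon-alpha production and is itself interferon-induced, did not pass the test in either line. It had 2.86, 2.66 and 2.73 CPM in 786O shControl and 2.38, 2.39 and 2.87 in 786O shBMAL1 (log2 change -0.11, SE 0.23, adjusted p = 0.742). In WT8 it had 8, 8 and 19 counts with shControl and 12, 14 and 8 with shBMAL1 (log2 change -0.10, SE 0.39, adjusted p = 0.85). The ratio of summed counts of shControl to shBMAL1 was 1.08 in 786O, with a counting interval of 0.910 to 1.28, and 1.07 in WT8, with an interval of 0.649 to 1.77. In 786O the upper bound lay below the falls of DHX58 and TLR3. In WT8 the interval of IRF7 overlapped that of TLR3, 1.66 to 8.55, and lay below that of DHX58, 2.08 to 8.27. The intervals cover counting error only. With the SE of 0.23, a fall in 786O as small as that of STAT2 (log2 change -0.37) could go undetected.

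**Figure D3:**
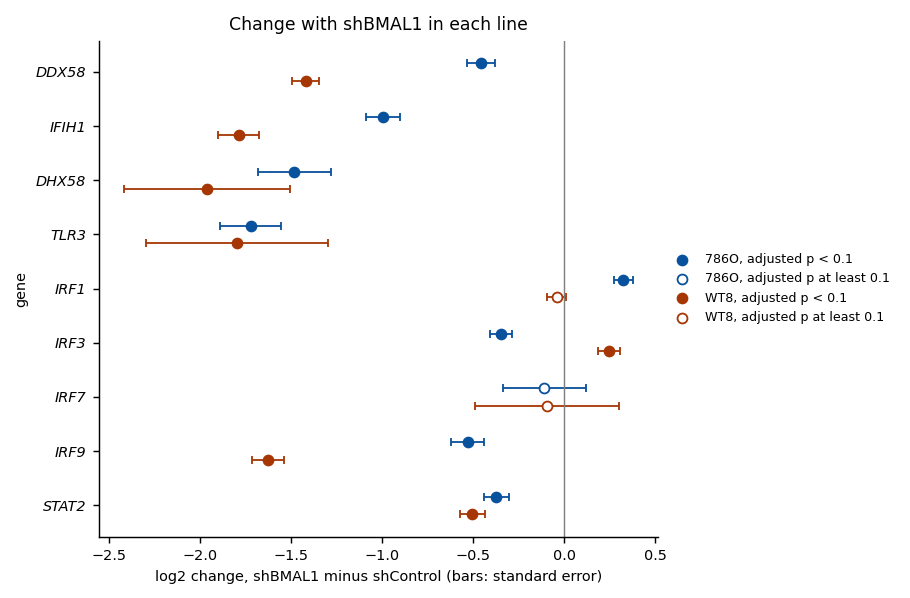
Log2 change with shBMAL1 (x axis, shBMAL1 minus shControl) of the 9 genes in 786O and WT8, with standard errors as bars, filled points at adjusted p under 0.1 and open points otherwise. The 4 sensors, IRF9 and STAT2 lie left of 0 in both lines, and IRF3 lies on opposite sides, at -0.35 in 786O and 0.25 in WT8.

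The interaction passed the test for 5 of the 9 genes, beside 56.0% of all genes tested. It was negative for DDX58, IFIH1, IRF1 and IRF9 and positive for IRF3. In DDX58, IFIH1 and IRF9 the fall was larger in WT8, by 1.95-fold, 1.73-fold and 2.14-fold. Interactions of DHX58, TLR3, IRF7 and STAT2 did not pass, which does not show that the lines respond alike. The knockdown itself was deeper in WT8, where mean ARNTL went from 9.24 to 1.66 CPM, against 12.1 to 3.94 CPM in 786O. Its part in the interactions was not tested.

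The lines also differed without the knockdown. With shControl, 8 of the 9 genes passed the test between WT8 and 786O, beside 79.5% of all genes tested, 3 higher in WT8 and 5 lower, among them TLR3, which passed the filter only through 786O and so had to differ. IRF9 was 2.28-fold higher in WT8 (log2 difference 1.19, SE 0.08, adjusted p = 4.08e-15), DDX58 was 1.81-fold higher (0.86, SE 0.07, adjusted p = 5.43e-13) and STAT2 was 1.09-fold higher (0.12, SE 0.07, adjusted p = 0.0885), a call that was lost when 1 of 8 of the 12 libraries was left out, with adjusted p up to 0.212. The STAT2 call was also lost with no filter on low counts (log2 difference 0.11, adjusted p = 0.135) and with the 1.5-fold minimum. TLR3 was 31.4-fold lower in WT8, given as a description with no test. DHX58 was 14.6-fold lower (-3.87, SE 0.25, adjusted p = 3.46e-16) and IRF7 8.42-fold lower (-3.07, SE 0.30, adjusted p = 1.57e-11). IFIH1 was 1.87-fold and IRF3 1.29-fold lower in WT8. IRF1 did not pass the test (log2 difference -0.04, adjusted p = 0.542), and its sign turned with upper quartile scaling (0.08). This comparison shares its control libraries with both shBMAL1 comparisons, so the values are given side by side and not correlated.

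The order of the group means differed between genes. DDX58 and STAT2 ran from WT8 shControl through 786O shControl to the 2 shBMAL1 groups, which did not pass the test against each other. IRF9 had the same leading pair and ended with WT8 shBMAL1 and 786O shBMAL1, also not separable. IFIH1 ran from 786O shControl through WT8 shControl and 786O shBMAL1, not separable, to WT8 shBMAL1. DHX58 and TLR3 ran from 786O shControl through 786O shBMAL1 and WT8 shControl to WT8 shBMAL1, and all neighbors differed. IRF7 split by line alone.

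Across the 12 libraries, genes were ranked by the Pearson correlation of their log2 CPM with that of 3 of the genes, as a description over libraries that share their group structure. The 5 nearest to DDX58 among 12947 candidates were IFITM3 (r = 0.986), SLC22A15, CMTR1, IFITM2 and SGPP2 (r = 0.984 for the last). IFITM3 and IFITM2 are interferon-induced restriction factors of virus entry, and near-identical to each other in sequence, so their counts are uncertain, and CMTR1 is an RNA cap methyltransferase. The 5 nearest to STAT2 were MAGT1 (r = 0.972), SEL1L3, RYK, HEATR5A and POGLUT1, and the 5 nearest to IRF7 were HNMT (r = 0.993), APBB1, LOC105376114, TNFAIP6 and P2RY2. HNMT and TNFAIP6 had log2 differences of -6.48 and -7.81 between the lines with shControl. With shBMAL1 in WT8 they changed by -1.71 and -3.83, and the other IRF7 neighbors by -0.07 to 0.10. A high r with IRF7 thus need not mean a like response to shBMAL1. Among the 9 genes, DDX58 and IRF9 had r = 0.976, DHX58 and TLR3 had r = 0.986, and DDX58 and TLR3 had r = -0.08, all over the same 12 libraries.

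The wider pathway was followed with 55 further genes, of which 39 passed the filter. In 786O 6 of them rose, 17 fell and 16 did not pass the test, so that 59% were called beside 48.9% of all genes tested. Their median log2 change was -0.12. In WT8 14 rose, 17 fell and 8 did not pass, with a median of -0.13 and 79.5% called beside 69.8% of all genes tested. With upper quartile scaling 11 rose and 21 fell in WT8. Of the 39, 8 (20.5%) were lower in both lines, 3 higher in both and 8 opposite, beside 13.6%, 12.4% and 12.1% of all genes tested.

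The interferon genes themselves were barely detected. None of the 9 listed passed the filter. IFNA1, IFNA2, IFNK, IFNG and IFNL3 had 0 counts in all 12 libraries, IFNB1 had at most 2 counts in a library, IFNL1 at most 1, IFNL2 at most 3 and IFNE at most 8. IFNL2 and IFNL3 are near-identical, so reads could be split between them. A count of 0 allows up to 3 counts in a library.

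Among the other nucleic acid sensors and the adaptors, TMEM173 (STING), the endoplasmic reticulum adaptor for cytosolic DNA, fell in both lines, with a log2 change of -0.62 in 786O (SE 0.08, adjusted p = 3.65e-08) and -2.18 in WT8 (SE 0.08, adjusted p = 9.63e-23). MB21D1 (cGAS), the enzyme that makes its ligand, rose in WT8 by 0.91 on the log2 scale (SE 0.07, adjusted p = 3.63e-13) and did not pass the test in 786O (-0.12, adjusted p = 0.203). IFI16, a DNA sensor, had log2 changes of -0.45 and -1.35 in 786O and WT8. TLR9, an endosomal DNA sensor, fell in WT8 (-2.02, adjusted p = 1.66e-05), and in 786O had 0.0778 CPM with shControl and 0.0862 with shBMAL1. IKBKE, a kinase of IRF3 and IRF7, fell by 0.52 on the log2 scale in 786O (SE 0.07, adjusted p = 1.43e-07) and rose by 0.51 in WT8 (SE 0.07, adjusted p = 2.04e-07). Of the 10 adaptors, ligases and kinases, 4 fell and 2 rose in 786O, and 4 fell and 3 rose in WT8, which is 60% and 70% called beside 48.9% and 69.8% of all genes tested. MAVS, through which RIG-I and MDA5 signal, did not pass the test in 786O (log2 change 0.06, adjusted p = 0.299) or in WT8 (0.01, adjusted p = 0.915). TICAM1, through which TLR3 signals, rose in WT8 (0.74, SE 0.07, adjusted p = 2.37e-11) and less in 786O (0.17, SE 0.07, adjusted p = 0.051). TRIM25, the ligase that ubiquitinates RIG-I, and MYD88, the adaptor of TLR9, fell in WT8 by 0.64 and 0.68 on the log2 scale. Both also fell in 786O, with log2 changes of -0.39 and -0.40.

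**Figure D4:**
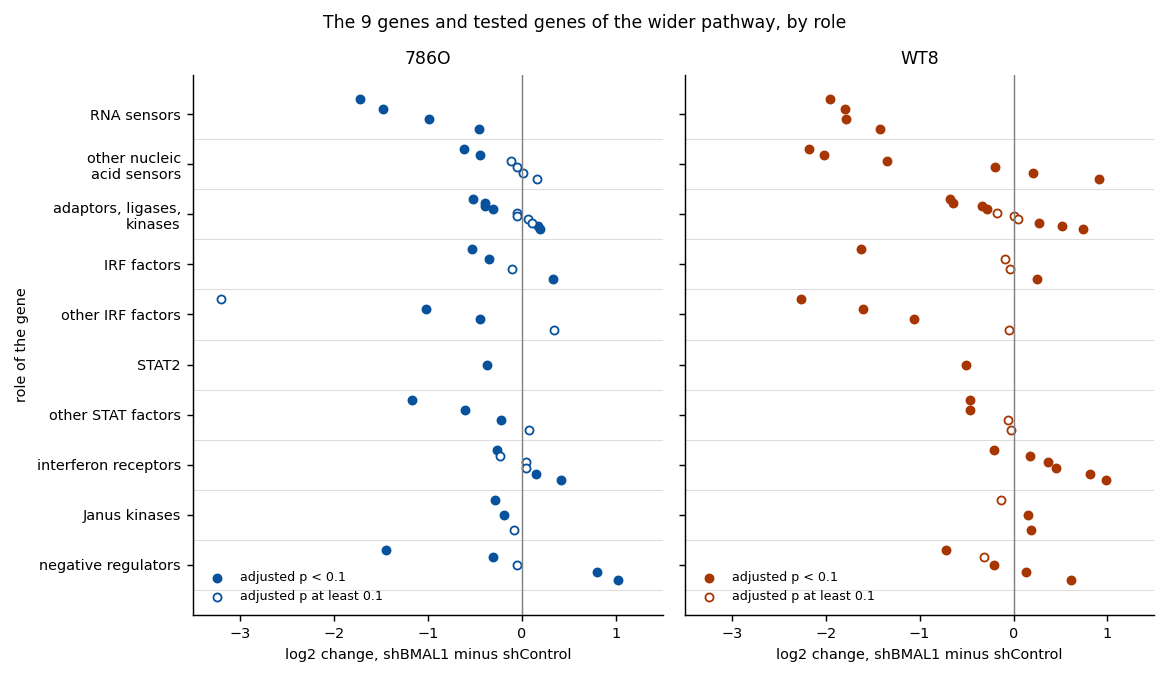
Log2 change with shBMAL1 (x axis) in 786O (left) and WT8 (right) for the 9 genes and all but 1 of the 39 tested genes of the wider pathway, grouped by role on the y axis, one point per gene, filled at adjusted p under 0.1. All 4 RNA sensors lie left of 0 in both panels, 5 of 6 interferon receptors lie right of 0 in WT8, and the open point at -3.20 in 786O is IRF4, which had almost no counts there.

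Of 6 interferon receptor genes, 5 rose in WT8, IFNGR2 by 0.81 (SE 0.06, adjusted p = 2.26e-14), IFNLR1 by 0.98 (SE 0.20, adjusted p = 5.39e-05), and IFNAR2, IFNAR1 and IL10RB by 0.45, 0.37 and 0.18 on the log2 scale, and IFNGR1 fell by 0.21. Of all genes tested, 32.9% were called higher and 36.9% lower in WT8. In 786O IFNGR2 and IFNGR1 rose, IL10RB fell and the other 3 did not pass the test, beside 48.9% of all genes called. The interaction passed for all 6 receptors, beside 56.0% of all genes tested. JAK1 and TYK2, the kinases bound to the type I receptor, fell by 0.29 and 0.19 in 786O and rose by 0.15 and 0.19 in WT8.

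STAT5A and STAT6 fell in 786O, by 1.17 and 0.61, and did not pass the test in WT8. IRF5, a factor of inflammatory signaling, fell by 1.02 in 786O and by 1.06 in WT8. IRF8 and IRF4, factors best known from blood cells, fell by 2.26 and 1.60 in WT8 and did not pass in 786O. IRF4 had 18 to 22 counts in the WT8 shControl libraries, 2 to 15 in WT8 shBMAL1 and at most 2 in 786O. It passed the filter only through WT8 shControl, so its fall was partly set by the filter and is a description only. IRF8 had 0.211 CPM with shControl and 0.268 with shBMAL1 in 786O. The fall of IRF4 was 1.16 without the second WT8 shBMAL1 library and did not pass (adjusted p = 0.114), and 2.78 without the third. Among negative regulators, SOCS1 and SOCS3, which block Janus kinase signaling, rose by 1.02 and 0.80 in 786O and fell by 0.72 and 0.21 in WT8, where the call of SOCS1 was lost without the first shControl library (adjusted p = 0.118) or the first shBMAL1 library (adjusted p = 0.102). PIAS1, an inhibitor of STAT signaling, rose by 0.61 in WT8. USP18, the ISG15 protease that restrains type I receptor signaling and is induced by interferon, fell by 1.45 in 786O (SE 0.18, adjusted p = 2.42e-08) and did not pass in WT8 (-0.32, adjusted p = 0.111).

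Between the lines with shControl, 9 of the 39 pathway genes were higher in WT8, 23 lower and 7 did not pass, which is 82.1% called beside 79.5% of all genes tested, of which 39.3% were higher and 40.2% lower. IRF8, IRF4 and TLR9 passed the filter only through WT8 and so had to differ, and their difference between the lines is not given as a result. SOCS3 was higher by 1.53 on the log2 scale and IFNGR1 by 0.98. STAT5A, IFI16, IRF5 and IKBKE were lower in WT8, with log2 differences of -3.13, -2.62, -2.46 and -1.32, and the receptor genes IL10RB, IFNLR1, IFNAR1 and IFNAR2 had log2 differences of -1.17, -1.15, -0.94 and -0.84. Those of RNF135, IRF2, TICAM1 and USP18 were -0.88, -0.82, -0.65 and -0.59. The interaction passed for 18 pathway genes with a positive sign and 12 with a negative sign, 76.9% in all, beside 27.4% positive and 28.5% negative of all genes tested. IRF8 and TLR9 are among the negative ones, but their 786O change could not be measured at this depth. Others over 1.5-fold were negative for SOCS1 (-1.73), TMEM173 (-1.56), SOCS3 (-1.01) and IFI16 (-0.90), and positive for IFNLR1 (1.22), USP18 (1.13), STAT5A (1.11), IKBKE (1.04), MB21D1 (1.03) and PIAS1 (0.66).

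Of 25 interferon-induced effector genes downstream of these factors, 22 fell, 1 rose and 2 did not pass in 786O, with a median log2 change of -0.79, beside 24.4% of all genes tested called lower. In WT8 24 fell and 1 rose, with a median of -2.62, beside 36.9% called lower. OAS2, MX2 and RSAD2 had at most 11, 15 and 20 counts in a shBMAL1 library and passed the filter on low counts only through shControl groups. Their falls were thus partly set by the filter, and the counts of genes that fell include them. The effector list was also chosen with earlier results of these data known. The median of the 4 RNA sensors was -1.24 in 786O and -1.79 in WT8. With shControl, 12 of the effectors were higher in WT8 and 11 lower, which is 92% called beside 79.5% of all genes tested. IFI44L had 7 to 21 counts in the WT8 shControl libraries and 0 in WT8 shBMAL1. It passed the filter only through 786O, so its difference between the lines was partly set by the filter, and the 92% includes it.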

How the data were processed

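RNA-seq was analysed in 12 libraries, 3 per group. The study's methods name alignment to GRCh37 with SeqMan NGen and gene values from ArrayStar, while the submitters' processing notes list STAR, DESeq2 and hg38, so aligner and build are uncertain. The authors deposited estimated counts per gene, not scaled between libraries. The tests had been planned for plain counts. A value of 0.028 stood in for 0 and was set to 0, 5.66% of the other values were not whole and were rounded, and 98 lines with 45 repeated names were summed by name. Counts of 2 (14904 values) outnumbered counts of 1 (11312), so mates of a pair may have been counted separately, and counting intervals are then too narrow.

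Genes were filtered with filterByExpr (16838 kept, 10087 with a count removed) and scaled by TMM (factors 0.948 to 1.04). A mean per group was fitted over all 12 libraries by the quasi-likelihood F test of edgeR 4.0.16 (robust setting, R 4.3.3), with Benjamini-Hochberg adjustment over all genes tested and the study's false discovery rate of 0.1. The SE was taken as the absolute log2 change over the root of the F statistic. CPM uses TMM-scaled totals. The common biological coefficient of variation was 5.70%. The fit was tested on simulated data. Alternatives were DESeq2 1.42.0, limma-voom (limma 3.58.1), other scalings, no filter, a replicate block, only the groups compared, a 1.5-fold minimum, halved counts and each library left out. Same-numbered libraries did not deviate together.

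The members and lists were chosen with earlier results of these data known. Named genes are the 9 members, pathway genes called over 1.5-fold, at most 20 per comparison, and the 5 genes nearest in pattern to DDX58, IRF7 and STAT2 among those with a mean of at least 50 counts. Other genes given with values were chosen after their values were seen. Results for 1 gene of the pathway list are not reported here, although the list counts include it. Promoter windows came from RefSeq, positions from GENCODE version 44 lifted to GRCh37, which matched all 9 members.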

Additional observations from a re-analysis of the deposited data

Results flagged for a closer look

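The change with shBMAL1 differed between WT8 and 786O for 5 of the 9 genes (55.6%) by the interaction test, beside 56.0% of all genes tested. The share of the 9 genes was thus close to that of all genes. Values are on the log2 scale, with adjusted p from edgeR. The difference was -0.96 for DDX58 (adjusted p = 1.28e-09), -0.79 for IFIH1 (3.02e-05), -1.10 for IRF9 (2.52e-09), -0.37 for IRF1 (6.38e-05) and 0.59 for IRF3 (2.94e-07). DDX58, IFIH1 and IRF9 fell in both lines and more in WT8, and IRF1 rose in 786O and did not pass the test in WT8. IRF3, whose counts are uncertain, fell in 786O and rose in WT8. ARNTL, the knockdown target, had a mean of 12.1 CPM with shControl and 3.94 with shBMAL1 in 786O, and 9.24 and 1.66 in WT8. BMAL1 depletion was thus not equal in the 2 lines. VHL RNA and the summed renal epithelial markers also differed between the WT8 groups. The part of ARNTL, VHL and the markers in the interactions was not tested.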

How the results depend on the processing

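Requiring a change over 1.5-fold lowered the counts most: 3 of the 9 genes stayed called in 786O (DHX58, TLR3 and IFIH1, all lower) and 2 in the interaction, and of the wider pathway 4 in 786O, 11 in WT8, 15 between the lines and 10 in the interaction. Under the other alternatives and with each library left out, the counts of called genes stayed within 1.5 times of those reported. Fitted on the WT8 libraries alone, TLR3 was not tested. Upper quartile scaling moved the median of all genes tested to -0.12 in WT8 and 0.11 between the lines.

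Among the genes named, signs turned for IRF1, IRF7 and TLR3, in values that had not passed the test. The IRF1 difference between the lines became 0.0779 with upper quartile scaling. The IRF7 interaction became -0.003 with median-of-ratios factors, -0.0493 with upper quartile scaling, -0.0037 in DESeq2 and -0.0562 with halved counts, and ran from -0.2064 to 0.5382 with libraries left out. With libraries left out, the WT8 change of IRF1 ran from -0.0764 to 0.0008, that of IRF7 from -0.3197 to 0.4244, and the TLR3 interaction from -0.3161 to 0.3711. The low counts of TLR3, DHX58 and IRF7 in WT8 limit these values.

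Replicate numbers were no pairing: deviations of same-numbered libraries correlated between -0.0456 and 0.0065. With the replicate block, 8, 7, 8 and 5 of the 9 genes were called in the 4 comparisons, as without it, and 23, 30, 32 and 29 pathway genes.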
